A study of Caenorhabditis elegans with 6 samples.

Results

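The genes described here encode the proteins of the cytosolic ribosome of Caenorhabditis elegans, with ribosomal RNA shown beside them. The protein genes were the 74 whose symbol has the form rpl, rps or rla and a number in the array's gene table, out of 17118 genes measured, and each was read at its brightest probe set. Of these, 44 are rpl genes, 30 are rps genes and none is an rla gene. Ribosomal RNA was read at 6 probe sets that name 1 rrn gene each. RNA with poly(A) tails was isolated from L2 larvae grown at 25 °C to sample A-class motor neurons, the DA and VA neurons that drive backward movement. Markers of other tissues were present in it as well. Wild-type animals (N2) gave 3 arrays and unc-37(e262) mutants the other 3, and the labels call them biological replicates. Animals of both groups made PAB-1, a poly(A)-binding protein, with a FLAG tag from the unc-4 promoter, by which RNA was isolated, and the RNA passed through 2 rounds of amplification. UNC-37 is a corepressor of the Groucho family that works with the homeodomain protein UNC-4.

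A ribosome joins a small subunit, which reads the messenger RNA, and a large subunit, which forms peptide bonds. The proteins named RPS belong to the small subunit and those named RPL to the large one, and each ribosome carries them in set proportions around a core of ribosomal RNA. Every growing cell makes these transcripts in large amounts. Ribosomal RNA is made separately from tandem gene copies and carries no poly(A) tail of the messenger kind.

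Ribosomal proteins and ribosomal RNA gave different results. None of the 74 protein genes was called as changed between the genotypes, and their log2 changes, unc-37 minus wild type, ran from -0.32 to 0.20 with a median of 0.03. The 6 ribosomal RNA probe sets lay higher in every unc-37 array than in every wild-type array, by log2 changes of 1.26 to 2.19. Of these 6, 4 rose in signal, which need not follow the level in the cells. A change is called here when limma's moderated test, Benjamini-Hochberg adjusted over all 22548 probe sets, gives an adjusted p below 0.05. Over all genes at their brightest probe set, 6.75% were called, 3.94% higher and 2.81% lower. Over all probe sets 6.42% were called, 3.85% higher and 2.57% lower. Every unc-37 array was above every wild-type array in 12.8% of all probe sets, and 13.1% had the reverse order. The unadjusted p was below 0.05 in 20.8% of all probe sets and in all 6 of ribosomal RNA.

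Values are log2 intensities after RMA, and array medians ranged from 50.1 to 52.4 on the linear scale. Array numbers in the labels run from 73 to 85 for wild type and from 89 to 98 for unc-37, so the effects of array number and of genotype cannot be told apart. The targeted gene, unc-37, was at 8.49 ± 0.04 (SD, n = 3) in wild type and 8.99 ± 0.10 in unc-37 arrays (adjusted p = 0.0159, limma), a call that ended without wild-type replicate 1 (adjusted p = 0.0509) or wild-type replicate 2 (adjusted p = 0.0711), with an intensity trend in limma's prior variance (adjusted p = 0.0522), on plain _at probe sets (log2 change 0.29, adjusted p = 0.201) and where a fold of 1.5 was also asked for. Its other probe sets were not called, and what e262 alters is not stated in the labels. All 7 markers of A-class and cholinergic neurons rose, with a median of 1.05, as did 10 of 17 pan-neuronal genes, with a median of 0.65. The largest rise among the 7 was that of unc-4, whose promoter drives the tag. It was at 7.43 ± 0.69 (SD) in wild type and 10.17 ± 0.28 in unc-37 arrays, a log2 change of 2.74 (adjusted p = 0.00245, limma). Of 5 markers of B-class motor neurons 4 rose, with a median of 0.95 and summed intensities of 346 to 365 in wild type and 695 to 721 in unc-37 arrays. For the A-class and pan-neuronal lists the sums were 1277 to 1806 in wild type and 3581 to 4094 in unc-37 arrays, and 7113 to 8342 against 11813 to 12667. The RNA was isolated by the tag. The number of cells of a type, the RNA per cell and the yield of the isolation thus cannot be told apart. Whether the B-class genes rose within the tagged cells through the mutation of the corepressor gene was not tested.

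Ribosomal RNA is taken first, since it holds the changes. The gene rrn-3.1 encodes the 26S RNA of the large subunit and has 5 probe sets, which read 1 transcript and are not independent. Its probe set 173149_at gave 11.74, 11.38 and 12.76 in the wild-type arrays and 12.997, 13.35 and 13.42 in the unc-37 arrays. That is a log2 change of 1.29 ± 0.31 (SE, n = 3 per group, limma adjusted p = 0.0477). All 3 unc-37 arrays were above the highest wild-type array, which was replicate 3.

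The probe set 194189_x_at gave 11.50, 11.21 and 12.59 against 12.88, 13.16 and 13.12, a log2 change of 1.28 ± 0.31 (adjusted p = 0.0469, limma). The probe set 173156_s_at gave 10.002, 9.63 and 11.62 against 12.02, 12.23 and 12.37, a log2 change of 1.79 ± 0.44 (adjusted p = 0.0495, limma). These 3 probe sets rose, and each passed the threshold by a small margin. The remaining pair of rrn-3.1 probe sets, 173203_at and 173392_s_at, also had every unc-37 array above every wild-type array. They were not called, at log2 changes of 1.26 (adjusted p = 0.0715, limma) and 1.85 (adjusted p = 0.0527, limma).

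The symbol rrn-3.56, which RefSeq lists as a ribosomal RNA pseudogene, has 1 probe set, 171767_x_at. It gave 9.09, 8.17 and 9.82 in wild type and 10.46, 11.46 and 11.73 in unc-37 arrays, a log2 change of 2.19 ± 0.43 (adjusted p = 0.0225, limma). A probe set that names both rrn-3.1 and rrn-3.56, 173281_s_at, gave a log2 change of 2.18 (adjusted p = 0.0152, limma). Probe sets with the _x_at and _s_at endings can bind related transcripts, so these values need not belong to 1 gene. The 5S RNA, which is made from a separate gene cluster, is read by 194153_at, a probe set that names 11 rrn-4 genes. It gave 5.53, 5.15 and 6.17 in wild type and 5.13, 5.19 and 5.59 in unc-37 arrays, a log2 change of -0.32 ± 0.24 (adjusted p = 0.521, limma). Its groups overlap, and its level stayed dim on every array.

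**Figure D1:**
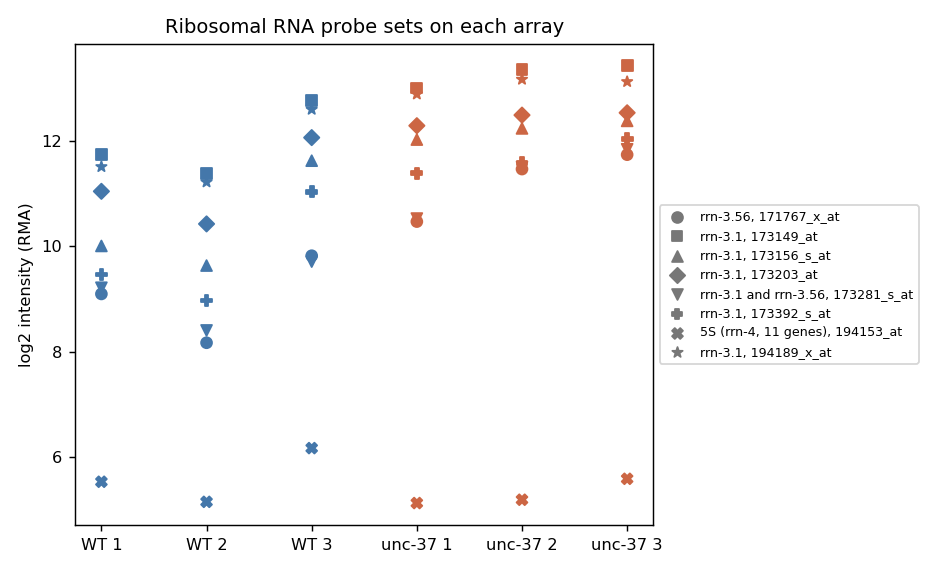
Log2 intensity of the 8 ribosomal RNA probe sets (vertical axis) on each of the 6 arrays (horizontal axis, wild type blue, unc-37 orange). WT is wild type, and each marker shape is 1 probe set. The 26S and rrn-3.56 probe sets are lowest in wild-type replicates 1 and 2 and higher in wild-type replicate 3 and all unc-37 arrays, while the 5S probe set at the bottom does not separate the groups.

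The wild-type arrays differed widely among themselves. Over the 5 probe sets of rrn-3.1 the mean log2 level was 10.75, 10.32 and 12.01 in wild type and 12.31, 12.56 and 12.69 in unc-37 arrays, or 11.03 ± 0.88 (SD) against 12.52 ± 0.19. The unc-37 means rose in the order of array number (89, 92 and 98). In wild type the array of highest number, 85, was highest, and array 80 lay below array 73. An effect of array number on ribosomal RNA was not tested. Wild-type replicate 3 stood 1.20 to 1.82 above the mean of the other wild-type arrays in these probe sets, and 0.23 to 0.40 below the lowest unc-37 array. Without wild-type replicate 3 all 6 probe sets were called, at adjusted p up to 0.00945. Without wild-type replicate 1, wild-type replicate 2, unc-37 replicate 2 or unc-37 replicate 3 none was called (smallest adjusted p = 0.0598 to 0.0783, limma), and without unc-37 replicate 1 only the probe set of rrn-3.56 was called. All 6 log2 changes stayed above 0 with each array left out, between 0.88 and 2.59. Pan-neuronal, A-class and B-class markers had median changes of 0.65, 1.05 and 0.95 between the same groups. Their part in the higher ribosomal RNA signal was not tested.

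The protein genes varied little. The mean log2 level over the 74 genes was 12.65, 12.63 and 12.66 in wild type and 12.72, 12.68 and 12.62 in unc-37 arrays, so that unc-37 replicates 1 and 2 lay above wild type and replicate 3 below it. No gene had an unadjusted p below 0.05, against 21.4% of all genes, and the smallest adjusted p by limma was 0.278. The spread of a gene between replicates was small, with a median residual SD of 0.07. That median was 0.14 over all genes and 0.12 over other genes with a mean log2 level of 12 or more. The 95% interval of the change lay within 1.5-fold of no change for 72 genes, all but rps-18 and rps-20, and within 2-fold for all 74. The probe set of rpl-42 was dim, at 5.75 to 5.96 against array medians of 5.65 to 5.71, so its change of -0.09 says little about the transcript, while every other member averaged 10.70 or more. These intervals are per gene and not adjusted for their number. For p values and intervals limma draws each gene's SD toward that of all probe sets. The SD it used was a median of 1.60 times the member's own residual SD, so missing calls do not rest on the members' spread alone.

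Most changes lay slightly above 0. Of the 74 genes, 52 (70.3%) had a log2 change above 0, against 46.6% of all genes. Of the 74, 11 had every unc-37 array above every wild-type array, none the reverse. Over all genes the shares of those orders are 12.6% and 13.7%, and 11 of 74 is close to the former. The median of 0.03 compares with -0.01 over all genes, and the medians of the rpl and rps genes were 0.03 and 0.02. With only probe sets at or above the median level kept, the medians were 0.031 for the members and 0.025 for all genes. Other genes with a mean log2 level of 12 or more had a median of 0.003. Centring each array on its median gives 0.06 for the members and 0.01 for all genes.

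**Figure D2:**
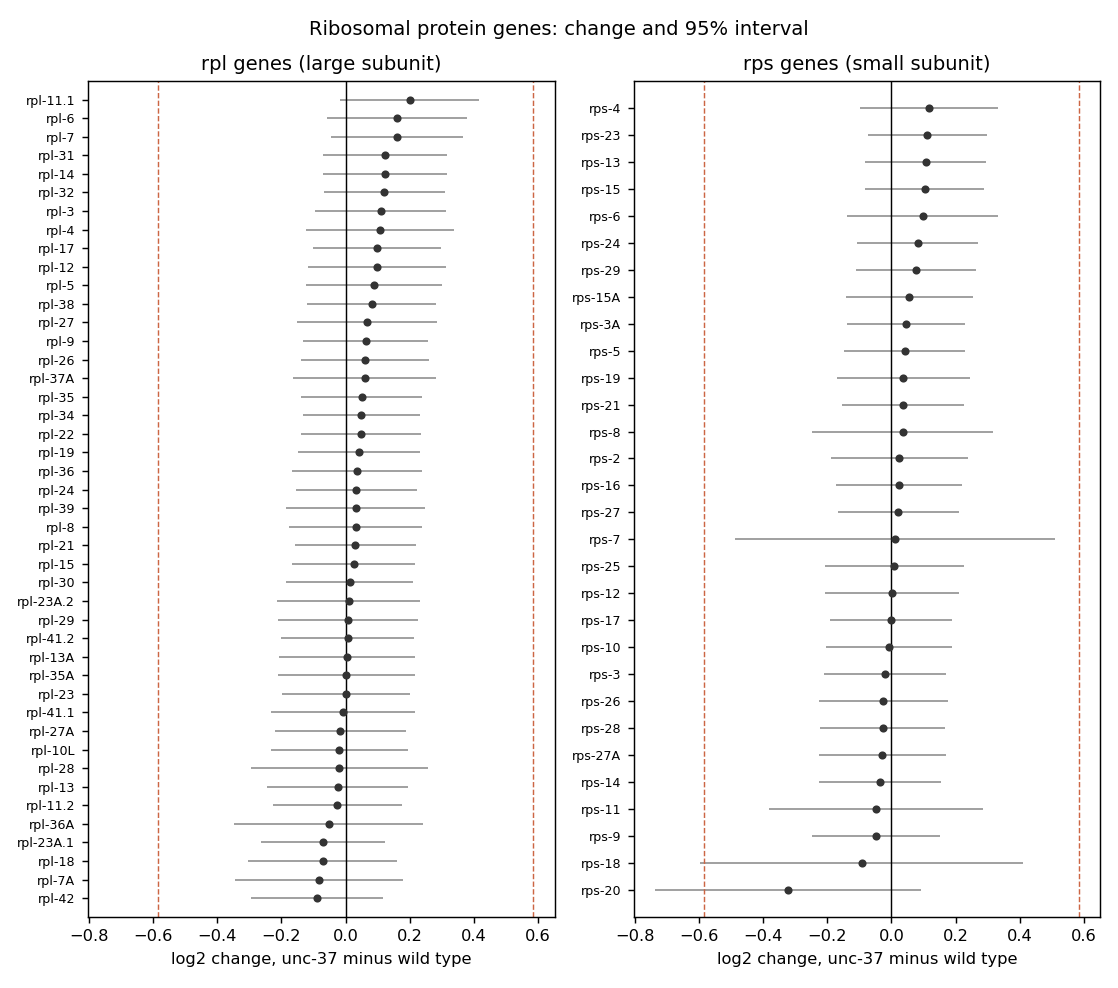
Log2 change, unc-37 minus wild type (horizontal axis), of each of the 44 rpl genes (left) and 30 rps genes (right), as points with 95% intervals from limma. The solid line marks no change and the dashed lines a change of 1.5-fold. Every interval includes 0, and only those of rps-18 and rps-20 reach beyond a dashed line.

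The members are among the brightest features of the arrays. On each array 56 to 60 of the 74 genes stood among the 100 brightest probe sets, and RMA sets all arrays to one distribution of intensities. The 32 other genes with a mean log2 level of 12 or more, a set chosen after values were seen, ranged in change from -0.91 to 0.81. Whether a shift common to the ribosomal protein genes was reduced by that step was not tested.

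Among large subunit genes, rpl-11.1 had the smallest p. RPL-11 and RPL-5 together bring the 5S RNA into the large subunit. The levels of rpl-11.1 were 10.56, 10.50 and 10.74 in wild type and 10.83, 10.76 and 10.81 in unc-37 arrays. The groups do not overlap, and the log2 change was 0.20 ± 0.09 (SE, limma adjusted p = 0.278). Its partner rpl-5 was at 12.72, 12.82 and 12.90 against 12.96, 12.93 and 12.82, a change of 0.09 with overlapping groups.

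Other rpl genes near the top of the list had similar sizes. The gene rpl-7 gave 12.36, 12.49 and 12.54 against 12.64, 12.67 and 12.56, a log2 change of 0.16 (adjusted p = 0.365, limma). The gene rpl-6 gave 12.23, 12.36 and 12.40 against 12.57, 12.52 and 12.39, a log2 change of 0.16 (adjusted p = 0.388). The first pair of groups does not overlap and the other does. The next were rpl-31, rpl-14 and rpl-32, at 0.12 each, and rpl-3, whose protein reaches toward the peptide-bond centre, at 0.11, with adjusted p of 0.460 to 0.550.

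Among small subunit genes, rps-20 had the smallest p and the largest size of any member. Its levels were 11.58, 11.69 and 11.54 in wild type and 11.45, 11.56 and 10.82 in unc-37 arrays, a log2 change of -0.32 ± 0.18 (adjusted p = 0.364, limma). Replicates 1 and 3 lay below every wild-type array, replicate 3 by far the most, and without replicate 3 the change was -0.09. The dimmer probe set of rps-20, 171976_x_at, had a change of -0.16 (adjusted p = 0.488, limma). The gene rps-23, whose protein lines the decoding centre, gave 13.02, 13.01 and 13.03 against 13.16, 13.10 and 13.14, a change of 0.11 (adjusted p = 0.488). Its groups do not overlap, and the shift was not called. The residual SD of rps-23 was 0.02, but limma's SE of 0.08 also draws on the spread of all probe sets. The changes of rps-4 (0.12), rps-13 (0.11) and rps-15 (0.10) were of the same size, with adjusted p of 0.521 to 0.543.

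Copies of a ribosomal protein gene were compared where the array reads them apart. RPL-11 is encoded by rpl-11.1 on chromosome V, a copy known for its need in the germ line, and by rpl-11.2 on the X chromosome. The level of rpl-11.2 was 12.75, 12.82 and 12.85 in wild type and 12.87, 12.75 and 12.73 in unc-37 arrays, a log2 change of -0.03. The difference between the changes of the copies was 0.23, with no overlap of the groups in the difference. An exact two-sided permutation test gave p = 0.1, the smallest that 3 against 3 arrays allow, and 0.3 when adjusted over the 3 pairs compared. Of 10 germline markers none was called (1 at an unadjusted p below 0.05, limma, against 21.4% of all genes). Their median change was -0.02, with summed intensities of 933 to 975 in wild type and 906 to 977 in unc-37 arrays.

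The copies of RPL-23A, a protein at the exit of the peptide tunnel, are rpl-23A.1 on the X chromosome and rpl-23A.2 on chromosome I. Their changes were -0.07 and 0.01, and the difference of -0.08 had an exact permutation p of 0.5. The neighbouring genes rpl-41.1 and rpl-41.2 on chromosome I encode a very short peptide of the ribosome. Their changes were -0.01 and 0.01, with a difference of -0.01 and an exact permutation p of 0.6. All 3 pairs can share signal through related sequence, so copies may differ more than their probe sets show.

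Symbols that differ by a closing A stand for different proteins. In these the changes were -0.02 for rpl-13 and 0.01 for rpl-13A, 0.07 for rpl-27 and -0.02 for rpl-27A, 0.05 for rpl-35 and 0.0022 for rpl-35A. They were 0.04 for rpl-36 and -0.05 for rpl-36A, -0.08 for rpl-7A, and 0.0011 for rpl-23. In the small subunit they were -0.02 for rps-3 and 0.05 for rps-3A, 0.06 for rps-15A, 0.02 for rps-27 and -0.03 for rps-27A. No sign among these is established, as the SE of the 74 changes had a median of 0.09.

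Ribosomal proteins whose symbols have another form were read as well. The stalk of the large subunit, which recruits elongation factors, is built from the proteins of rplp-0 (log2 change -0.04), rplp-1 (0.09), rplp-2.1 (0.12) and rplp-2.2 (0.10). The other genes of this kind were rpl-10a (-0.02), rpsa-1 (-0.06), ubq-2 (0.08), whose product is a ubiquitin fusion, fau-1 (0.02), whose product joins a ubiquitin-like protein to RPS-30, and rack-1 (-0.04), whose protein sits on the small subunit. None of these 9 genes was called by limma, and none had an unadjusted p below 0.05. The symbols rpl-37.1 and rpl-37.2 share 1 probe set, which had a change of 0.02, and rpl-18A was not analysed here.

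The members lie on every nuclear chromosome. Chromosome I holds 22 of the 74 (29.7%, against 14.4% of all protein-coding genes in RefSeq), chromosome III 17 and chromosome IV 16, and the X chromosome 2 (2.70% against 13.7%). The median change per chromosome lay between -0.05 on X and 0.04 on chromosome III. Apart from the rpl-41 pair, the members that are direct neighbours among protein-coding genes were rps-10 with rpl-24 (-0.01 and 0.03) and rps-14 with rpl-36 (-0.03 and 0.04).

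Where a gene had several probe sets, 1 array stood apart. Of the 74 genes, 31 had more than 1 probe set, which gave 34 pairs of a dimmer probe set and the brightest one. The gap of a pair was widest in unc-37 replicate 3 in 18 of 34 pairs, in no pair in wild-type replicate 1 or unc-37 replicate 1, and in 4 to 7 pairs in each of the other arrays. In all other genes with several probe sets that array had the widest gap in 33.6% of 3614 pairs. In those with a mean log2 level of 12 or more it did so in 15 of 27 pairs (55.6%), and in 10 of 18 when ribosomal proteins of other symbol form and ribosomal RNA were left out, close to the 52.9% of the members. The narrowest gap fell in unc-37 replicate 2 in 17 of the 34 pairs, and in 1 to 4 pairs in each of the other arrays. In all other genes unc-37 replicate 2 had the narrowest gap in 979 of 3614 pairs, the most of any array. These comparisons were chosen after the values were seen.

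The gene rpl-21 shows the wide gap of unc-37 replicate 3 most. Its brightest probe set, 173249_s_at, gave 13.08, 13.06 and 13.06 in wild type and 13.10, 13.15 and 13.04 in unc-37 arrays. Its dimmer probe set, 192813_at, gave 10.81, 10.77 and 10.76 against 10.89, 11.15 and 9.86. Only the dimmer one was low in unc-37 replicate 3, by 0.97 relative to the mean gap of the other arrays, and its log2 change was -0.15 against 0.03. In 6 pairs that shortfall was over 0.5, those of rpl-21, rps-5, rpl-26, rpl-9, rps-16 and rpl-18.

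The reverse held in rps-18, where the brightest probe set fell short in that array (11.48, 11.31 and 11.37 against 11.50, 11.67 and 10.72) and the dimmer one did not (8.37, 8.33 and 8.38 against 8.34, 8.36 and 8.27). The single probe set of rps-7 was low there too, at 11.104 against 11.63 to 12.04 on the other arrays. Across the rule's pairs of largest and smallest disagreement, changes were -0.02 and 0.17 in rpl-10L and 0.05 in both probe sets of rpl-22. For rps-10, the pair chosen gave -0.01 in both probe sets. Without unc-37 replicate 3 none of the 74 genes was called (smallest adjusted p = 0.133, limma), 1 had an unadjusted p below 0.05, and the median change was 0.04.

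**Figure D3:**
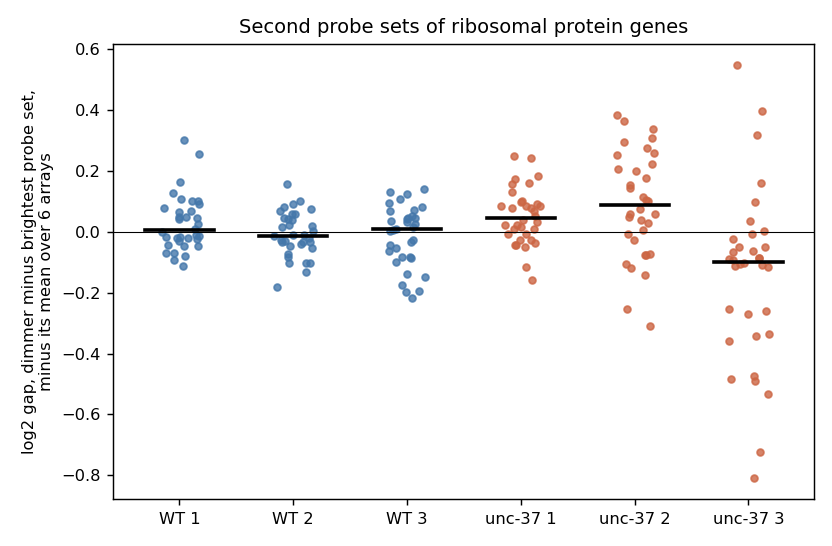
Log2 gap between a dimmer probe set and the brightest probe set of the same ribosomal protein gene, less its mean over the 6 arrays (vertical axis), for 34 pairs on each array (horizontal axis, WT for wild type in blue, unc-37 in orange). Points are pairs and black bars are medians. The points of unc-37 replicate 3 spread furthest, with a median of -0.10, and the other medians lie between -0.01 and 0.09.

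The genes that make and serve ribosomes were examined beside the members, from lists chosen with earlier results of these data known. Of 115 such genes none rose by limma and 1 fell, against 3.94% and 2.81% of all genes. The fall was that of daf-15, the Raptor partner of the TOR kinase, at a log2 change of -0.57 ± 0.12 (adjusted p = 0.0273), from the list of 11 genes that control ribosome making. Its other probe set was at 0.26 and not called (adjusted p = 0.293), and the call ended without wild-type replicate 1, wild-type replicate 2 or unc-37 replicate 1 (adjusted p = 0.0883 to 0.103). In these lists the unadjusted p was below 0.05 in 5 of 31 initiation factor genes, 5 of 32 aminoacyl-tRNA synthetase genes, 3 of 32 genes of ribosome making, 1 of the 11 control genes and none of 6 elongation factor genes. Over all genes that held for 21.4%.

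The medians of these lists were 0.17 for initiation factors, 0.10 for synthetases, 0.09 for ribosome making, 0.04 for its control and 0.04 for elongation factors, against -0.01 over all genes. The poly(A)-binding protein genes pab-1 and pab-2 had changes of 0.17 and 0.18 (adjusted p = 0.365 and 0.331). The coding sequence of pab-1 is also that of the tag, and the tagged and native copies cannot be told apart.

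The mitochondrial ribosome and the proteasome were read for comparison. Of 59 mitochondrial ribosomal protein genes, mrps-10 rose (0.52 ± 0.11, adjusted p = 0.0247) and none fell, a share below the 3.94% of all genes called higher. Of the 59, 55 lay above 0, against 46.6% of all genes, and the median was 0.24. Of 33 proteasome subunit genes, 5 rose and none fell, with a median of 0.42, among them rpt-3 (0.46 ± 0.08, adjusted p = 0.0163) and pas-2 (0.47 ± 0.09, adjusted p = 0.0216). The call of mrps-10 held only without wild-type replicate 3 when single arrays were left out (adjusted p = 0.0501 to 0.0954 otherwise). Those of rpt-3 and pas-2 ended without wild-type replicate 1, wild-type replicate 2 or unc-37 replicate 1 (adjusted p = 0.0592 to 0.0912), and that of pas-2 also without unc-37 replicate 2 (adjusted p = 0.0621). All 3 calls also ended with an intensity trend (adjusted p = 0.0516 to 0.0676) and where a fold of 1.5 was asked for, and that of rpt-3 with a second quantile normalization (adjusted p = 0.0681). The difference between these families and the cytosolic ribosomal proteins was not tested. Both families are dimmer on these arrays than the members, with median wild-type levels of 7.42 and 8.22 against 12.83.

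**Figure D4:**
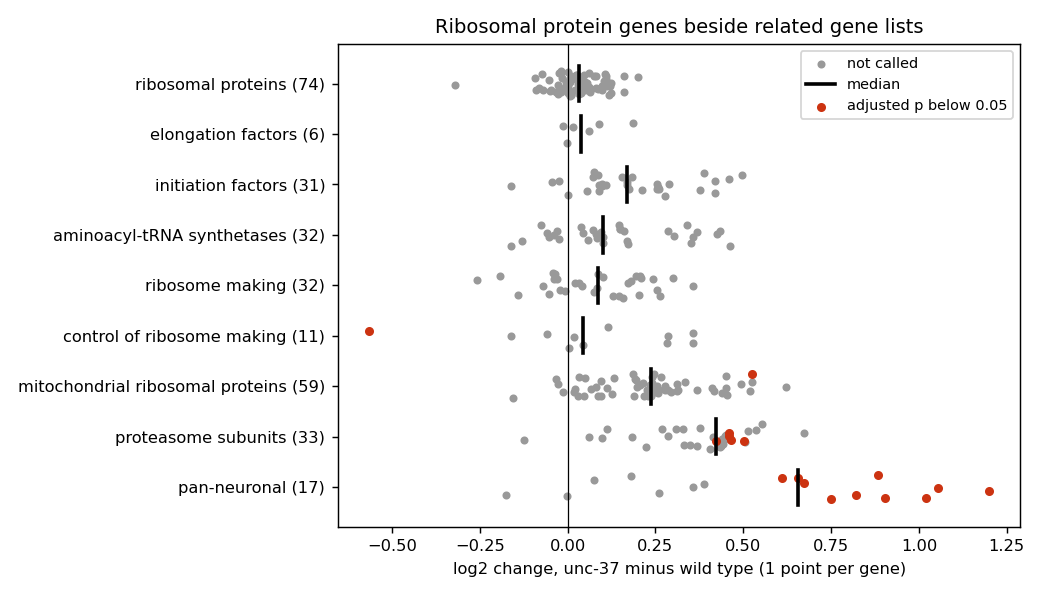
Log2 change, unc-37 minus wild type (horizontal axis), for each gene of the ribosomal proteins and of 8 other lists (vertical axis, number of genes in brackets). Each point is a gene, red where the adjusted p is below 0.05, and black bars are medians. The ribosomal protein genes lie in a narrow band around 0.03, while the medians of the mitochondrial ribosomal proteins, the proteasome and the pan-neuronal genes are 0.24, 0.42 and 0.65.

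Markers of other tissues were present in both groups. Of 9 body wall muscle genes, 6 pharynx genes, 9 intestine genes, 10 hypodermis genes and 4 GABA neuron genes none was called by limma. At an unadjusted p below 0.05 were 5 hypodermis genes, 1 intestine gene and 1 GABA neuron gene, against 21.4% of all genes. The median changes of these lists, in the order first given, were 0.09, -0.08, -0.14, 0.33 and 0.07. The hypodermis genes went both ways, from -0.79 to 0.78, with 6 above 0 and 4 below. Summed intensities were 6770 to 9501 in wild type and 6195 to 8944 in unc-37 arrays for hypodermis, and 7999 to 10179 and 8288 to 9988 for muscle. For intestine they were 9252 to 10995 and 6788 to 9582. All 3 ranges overlap between the groups. Transcripts of ribosomal proteins from the tagged neurons and from other cells cannot be told apart here.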

How the data were processed

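Intensities of 22548 probe sets on 6 arrays were deposited on a linear scale after RMA, per the submitters' processing notes. No version of RMA is stated there. That the scale is linear follows from array maxima of 12124 to 15148. RMA subtracts background, brings arrays to one distribution and summarises probes on a log scale. Here log2 was taken, with no further scaling or filter. Of the probe sets, 20766 name 1 gene, 887 several and 895 none. All 74 members were found in the RefSeq table of assembly WBcel235, used for names, chromosomes and neighbours.

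The groups were compared by limma 3.58.1 (lmFit, then eBayes; R 4.3.3) across every probe set with a two-sided test, which was tested on simulated data. With 3 arrays a group, an exact permutation test cannot go below p = 0.1. The number of arrays limits the precision. Figures used matplotlib 3.10.9. The members and lists were chosen with earlier results of these data known. Named are all ribosomal RNA probe sets, the 12 members of smallest p, members with near symbols, the 4 genes of largest and smallest disagreement between probe sets and up to 2 called genes per direction of each list; rps-5, rps-7, rps-16, rps-18, rpl-5, rpl-9, rpl-18, rpl-26 and the genes of other symbol form were added after values were seen. Alternatives covered the model (a trend with intensity, weighted arrays, replicate number as a block), the scaling (a repeated quantile step, median centring), the features (without dim probe sets, plain _at probe sets, gene means over probe sets), the threshold (adjusted p below 0.1, or 1.5-fold as well) and the omission of each array.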

Additional observations from a re-analysis of the deposited data

How the results depend on the processing

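No ribosomal protein gene was called in either direction under any of the 16 alternatives, the smallest adjusted p being 0.124 with a second quantile normalization, and their median change stayed between 0.0080 and 0.06; plain _at probe sets cover 35 of the 74 genes. The count of ribosomal RNA probe sets called higher was 4 and lay between 0 and 6 with single arrays left out. With the replicate block it was 5 and the median of the protein genes was 0.03. Replicate numbers are shared by the groups in the labels, but deviations of same-numbered arrays correlated at -0.19, -0.14 and -0.10. These values show no pairing by number, though they cannot exclude that same-numbered samples were handled together. The calls of unc-37 (adjusted p = 0.0588), mrps-10 (0.0543), rpt-3 (0.0637) and pas-2 (0.0744) ended with that block. Of the 115 related genes none was called higher at an adjusted p below 0.05, 2 at an adjusted p below 0.1, 6 with array weights, 2 with gene means over probe sets, 1 among probe sets at or above the median level and 0 to 5 without single arrays (5 without wild-type replicate 3). The 1 called lower became 0 with a fold of at least 1.5 or gene means over probe sets, and 0 to 1 without single arrays. Adjusted p values here are those of limma. A filter on brightness, plain _at probe sets and gene means over probe sets change which or how many features are tested by construction; the cause of the other shifts was not tested.

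Genes that were not called in any of these settings turned sign around 0. With array weights the log2 change was 0.019 for rpl-11.2, 0.016 for rpl-41.1 and 0.011 for rps-27A. With centring on array medians it was 0.0089 for rpl-10L, 0.0021 for rpl-11.2, 0.0035 for rpl-13, 0.011 for rpl-27A, 0.019 for rpl-41.1, 0.022 for rps-10 and 0.0080 for rps-3. With gene means over probe sets it was 0.075 for rpl-10L, -0.018 for rpl-13A, -0.058 for rpl-21, 0.0011 for rps-10 and 0.048 for rps-3. With plain _at probe sets it was -0.0043 for pab-2, 0.17 for rpl-10L, -0.15 for rpl-21, -0.015 for rps-23 and 0.12 for rps-3. With a second quantile normalization it was 0.015 for rack-1, 0.0089 for rpl-13, 0.0020 for rpl-27A, 0.047 for rpl-41.1, -0.0060 for rpl-41.2 and 0.0056 for rps-10. Without single arrays the ranges were -0.059 to 0.036 for rpl-10L, -0.071 to 2.9e-05 for rpl-11.2, -0.066 to 0.038 for rpl-13, -0.043 to 0.051 for rpl-13A, -0.029 to 0.042 for rpl-23, -0.044 to 0.081 for rpl-23A.2, -0.065 to 0.034 for rpl-27A, -0.040 to 0.061 for rpl-35A, -0.0017 to 0.070 for rpl-36, -0.15 to 0.061 for rpl-36A, -0.082 to 0.030 for rpl-41.1, -0.039 to 0.046 for rpl-41.2, -0.17 to 0.00087 for rpl-7A, -0.039 to 0.034 for rps-10, -0.0055 to 0.036 for rps-27 and -0.047 to 0.0077 for rps-3.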
